A study of Mus musculus with 12 samples.

Results

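The regions described here lay at the ends of protein-coding genes and carried 2 methylation states of histone H3 lysine 4 at once, H3K4me3 and H3K4me1, in wild-type mouse embryonic fibroblasts. The H3K4me3 peaks of all 4 H3K4me3 libraries on chromosomes 1 to 19 were merged where they shared at least 1 bp, which gave 17250 regions. A region was kept when it lay within 1 kb of either end of a RefSeq protein-coding gene, held an H3K4me3 peak in both wild-type (WT) files and was overlapped by an H3K4me1 peak in both WT files. This left 661 dual-mark regions, 3.83% of the merged regions and 6.41% of the 10313 gene-end regions with H3K4me3 in both WT files. Of the other gene-end regions, 7969 had no WT H3K4me1 peak, and 1683 had one in a single WT file. The WT peaks chose the regions, so all WT values below are descriptions, and the knockout (KO) values show how each mark was called in the other genotype.

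The series profiled mouse embryonic fibroblasts by Cut & Run, in which an antibody directs a nuclease to cut and release the chromatin it binds. Antibodies against H3K4me3, H3K4me1 and the methyltransferase MLL4 were each used on 2 WT libraries and 2 libraries with the genotype fbxw7 KO, 12 libraries in all. Fbxw7 encodes the substrate-binding part of an SCF ubiquitin ligase. The extent of the deletion and the line or cross behind the cells are not given in the labels. Nor do the labels tell whether replicate libraries are separate cultures, so a p-value here compares only these libraries, and their spread may be technical.

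Trimethylation of H3K4 marks nucleosomes just downstream of active and CpG-rich gene starts and is laid down mainly by the SET1 and MLL1/MLL2 complexes. Monomethylation is typical of enhancers, where MLL3 and MLL4 are its main writers, and it also flanks active promoters on the outer side of the trimethylated nucleosomes. A region that carries both therefore usually joins a trimethylated core to a monomethylated shoulder.

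Library sizes after filtering ranged from 11604131 to 13627038 fragments for H3K4me1 and from 4435103 to 5838305 for MLL4. Among the H3K4me3 libraries, WT replicate 1 stood apart with 11319701 fragments, against 5519477 to 6185767 in the others. That library was also called with up to 2 duplicates kept per position, where the other H3K4me3 libraries kept 1. The KO H3K4me3 files held 10186 and 11038 autosomal peaks against 16877 and 15552 in WT. Of the fibroblast marker genes on these chromosomes, 19 of 26 had H3K4me3 in both WT files at a gene end, against 3 of 12 haematopoietic, 2 of 12 endothelial, 3 of 12 neural and 0 of 12 epithelial markers. Peaks of histone marks do not check the deletion itself.

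Promoter sequences of 6 genes with dual-mark regions are shown because these genes span the outcomes described below and differ widely in CpG content. Each is the 250 bases before the gene's start on the coding strand, 5′ to 3′, from RefSeq on GRCm38.p6, with CpG dinucleotides in capitals. Col5a1 (chr2:27886175-27886424, plus strand, 28 CpG) encodes a collagen V chain, and Vegfc (chr8:54077282-54077531, plus strand, 30 CpG) a growth factor of lymphatic vessels. Ifit3b (chr19:34607707-34607956, plus strand, 1 CpG) belongs to the interferon-induced IFIT family, and Pold4 (chr19:4231643-4231892, plus strand, 12 CpG) encodes the small subunit of DNA polymerase delta. Slc39a3 (chr10:81037316-81037565, minus strand, 12 CpG) encodes a zinc transporter, and Tfpi (chr2:84476760-84477009, minus strand, 3 CpG) the inhibitor of the tissue factor pathway of blood clotting.
Col5a1: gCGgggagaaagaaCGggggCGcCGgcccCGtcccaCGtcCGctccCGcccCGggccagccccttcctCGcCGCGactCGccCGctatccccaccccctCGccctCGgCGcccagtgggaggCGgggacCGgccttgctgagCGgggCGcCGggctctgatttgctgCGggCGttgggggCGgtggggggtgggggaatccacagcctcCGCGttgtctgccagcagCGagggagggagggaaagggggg
Vegfc: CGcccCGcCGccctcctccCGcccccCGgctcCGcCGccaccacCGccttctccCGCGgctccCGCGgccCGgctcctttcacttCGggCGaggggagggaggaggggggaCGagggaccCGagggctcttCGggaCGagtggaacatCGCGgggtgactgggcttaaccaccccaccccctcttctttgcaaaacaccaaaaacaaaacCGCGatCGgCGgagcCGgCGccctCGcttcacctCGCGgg
Ifit3b: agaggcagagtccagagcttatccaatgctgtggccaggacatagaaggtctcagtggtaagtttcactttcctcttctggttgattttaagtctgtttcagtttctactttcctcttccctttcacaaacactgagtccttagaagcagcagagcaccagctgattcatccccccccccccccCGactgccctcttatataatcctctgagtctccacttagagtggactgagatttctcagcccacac
Pold4: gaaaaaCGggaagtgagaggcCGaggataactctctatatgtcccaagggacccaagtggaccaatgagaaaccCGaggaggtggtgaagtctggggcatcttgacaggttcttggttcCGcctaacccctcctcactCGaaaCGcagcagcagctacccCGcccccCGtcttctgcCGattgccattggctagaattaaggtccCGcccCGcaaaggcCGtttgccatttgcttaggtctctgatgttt
Slc39a3: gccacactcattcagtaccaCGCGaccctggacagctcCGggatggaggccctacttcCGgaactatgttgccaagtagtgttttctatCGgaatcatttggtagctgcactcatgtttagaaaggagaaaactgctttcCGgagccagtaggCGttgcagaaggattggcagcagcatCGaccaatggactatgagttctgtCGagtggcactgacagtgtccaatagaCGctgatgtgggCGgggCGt
Tfpi: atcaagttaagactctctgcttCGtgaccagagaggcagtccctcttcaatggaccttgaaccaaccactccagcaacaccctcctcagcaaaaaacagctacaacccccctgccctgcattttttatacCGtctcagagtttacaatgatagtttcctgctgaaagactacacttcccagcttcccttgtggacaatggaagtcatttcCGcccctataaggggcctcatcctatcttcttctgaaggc

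The median CpG content of the dual-mark regions lay below that of gene-end regions with H3K4me3 alone, a description over regions with no test. A promoter window of 300 bases (250 before to 50 after the start) could be read for 484 of the 661 regions. The median window held 19 CpG, against 24 at 6195 regions without WT H3K4me1 and 14 over all 20085 protein-coding starts. Among gene-end H3K4me3 regions of WT, dual-mark regions were less frequent the more CpG the window held, from 14.6% of regions with 0 to 5 CpG, through 8.39% with 6 to 15 and 6.23% with 16 to 25, to 4.07% with 26 or more. Windows with 5 or fewer CpG made up 7.85% of the dual-mark regions, 2.87% of those without H3K4me1 and 31.4% of all starts. Ifit3b and Tfpi, shown above, are of this CpG-poor kind, whereas Col5a1 and Vegfc are of the CpG-rich kind.

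Short promoter motifs were searched by exact letters on both strands of the same windows. In dual-mark windows, GGGCGG and CACGTG were less frequent than in windows without H3K4me1, and TATAAA and TGACTCA somewhat more frequent. CCAAT had a close share, and none of these differences was tested. The GC box GGGCGG was in 66.9% of dual-mark windows, 71.7% of windows without H3K4me1 and 47.0% of all starts. The TATA motif TATAAA was in 7.23%, 6.20% and 12.7% in the same order, and CCAAT in 39.0%, 38.8% and 38.1%. The AP-1 motif TGACTCA was in 3.93%, 2.70% and 4.70%, and the E-box CACGTG in 7.85%, 10.9% and 7.89%. No motif is contained in another, CACGTG reads the same on both strands, and a match is only a match of letters.

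In WT cells, the 2 marks took different positions along the gene start. At the 484 dual-mark regions with a known start, H3K4me3 peaks were most frequent at +200 bp (94.6% of regions) in WT replicate 1 and at +300 bp (89.3%) in replicate 2. H3K4me1 peaks formed 2 humps, one upstream with a maximum at -400 bp (26.03%) and -300 bp (23.1%) and one downstream at +1200 bp (26.4% in both replicates). Between the humps, H3K4me1 was lowest at +400 bp (7.85%) and +500 bp (8.06%), close to where H3K4me3 was most frequent. In KO, H3K4me3 was most frequent at +400 bp (49.4%) and +300 bp (56.6%), and at the start itself it was present in 24.4% and 27.9% of regions against 85.1% and 71.5% in WT. The H3K4me1 humps of KO stood at -400 bp (16.9%) and -500 bp (13.4%) upstream and at +1300 bp (18.6%) and +1100 bp (14.0%) downstream.

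**Figure D1:**
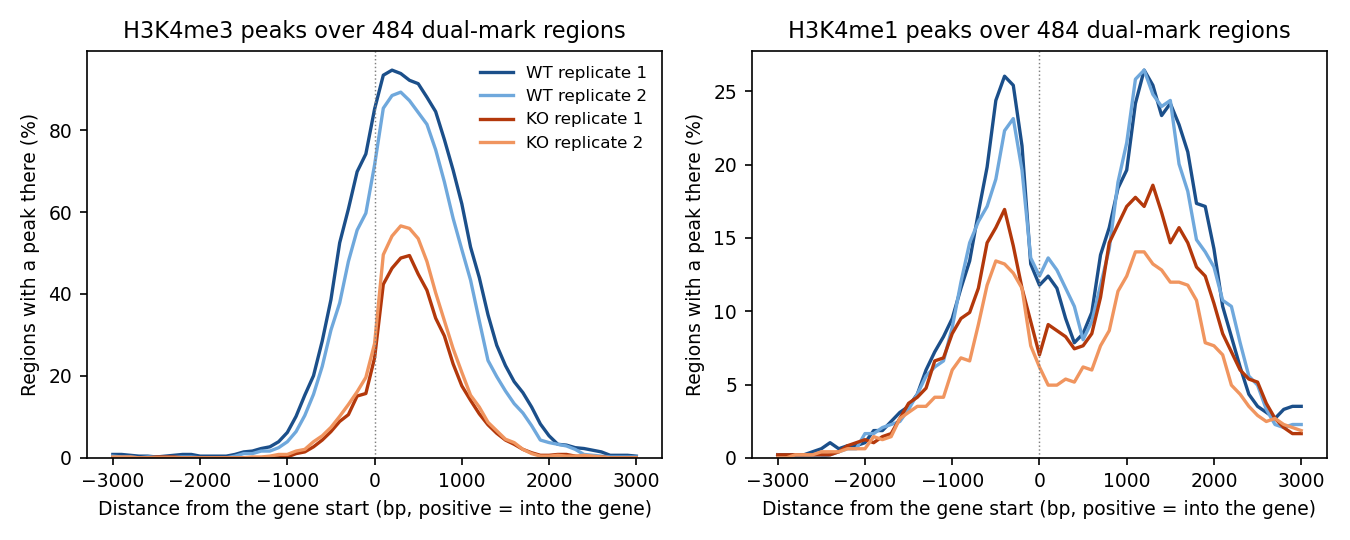
Percent of the 484 dual-mark regions with a known gene start that had an H3K4me3 peak (left) or an H3K4me1 peak (right) at each distance from the start, in steps of 100 bp, with 1 line per library. H3K4me3 is a single hump just inside the gene and H3K4me1 forms 2 humps around it, and both KO curves are lower than both WT curves at the summits.

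The shoulder position of H3K4me1 also showed in how its peaks met the region's borders. In the WT files, 72.5% and 75.5% of the 661 regions had H3K4me1 across exactly 1 border, 3.48% and 2.57% across both borders, and 24.1% and 21.9% only inside. The median H3K4me1 cover was 19.9% and 19.6% of the region. Most dual-mark regions thus had H3K4me1 peaks across 1 border only. An H3K4me1 peak wholly outside a region crosses no border and was not counted. Among regions that still had H3K4me1 in a KO file, the 1-border share was 74.4% and 66.5%. The regions had a median length of 1517 bp, from 315 to 3696 bp, close to the 1506 bp of gene-end regions without H3K4me1.

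Judged by the authors' peak scores, these were strong H3K4me3 sites with weak H3K4me1. The median H3K4me3 peak ranked at the 66.7 and 64.0 percentile of its WT file, where 100 is the best −log10 q. At gene-end regions without WT H3K4me1 it ranked at the 63.2 and 59.7 percentile. Strong H3K4me3 was thus not particular to the dual-mark regions. The median H3K4me1 peak of the dual-mark regions ranked at the 38.8 and 38.7 percentile. The median −log10 q of H3K4me1 was 5.15 and 5.16 in WT, and 5.55 and 5.02 in the 410 and 340 regions that kept a peak in KO replicates 1 and 2. The median −log10 q of H3K4me3 was 45.6 and 22.0 in WT, and 6.91 and 7.91 in the KO peaks. The whole H3K4me3 files differed likewise, with file medians of 34.0 and 17.8 in WT against 6.44 and 6.99 in KO.

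Followed into KO cells, about 3 in 4 of the regions held H3K4me3 in each KO file and somewhat more than 1 in 2 held H3K4me1. H3K4me3 was present at 487 regions (73.7%) in KO replicate 1 and 505 (76.4%) in replicate 2, a mean of 75.04% ± 1.93 (SD, n = 2). Kept and lost refer here to peak calls. It was called in both KO files at 445 regions (67.3%), in 1 file at 102 (15.4%) and in neither at 114 (17.2%). The background was 57.8% in both KO files over all 14190 merged regions held by both WT files and 67.6% over the 10313 gene-end ones. For neither KO file it was 25.9% and 16.5%. The dual-mark regions therefore kept H3K4me3 at a share near that of gene ends in general. The share for both KO files was 43.1% of 197 regions when only peaks with −log10 q of at least 5 were used. It was 8.11% of 37 regions when peaks had to cover 50% of the region. The backgrounds above do not apply to these 2 settings. At the same settings, the dual-mark regions differed by -6.78 and -8.80 percentage points from gene-end regions with no WT H3K4me1 peak meeting the setting. That comparison set can include regions whose WT H3K4me1 peaks fell short of the setting.

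H3K4me1 was present at 410 regions (62.0%) in KO replicate 1 and 340 (51.4%) in replicate 2, a mean of 56.7% ± 7.49 (SD, n = 2). It was called in both KO files at 256 regions (38.7%), in 1 at 238 (36.0%) and in neither at 167 (25.3%). Over all 40534 merged H3K4me1 regions held by both WT files, the background was 66.1% in both KO files and 15.1% in neither. These 2 shares count unlike units, merged H3K4me3 regions for the dual-mark sites and merged H3K4me1 regions for the background. Counted over merged H3K4me1 regions, the share in both KO files at the dual-mark sites was 45.2% of 620. In that like unit too, H3K4me1 was called in both KO files less often there than at large. No test is given for these shares, because the WT peaks chose the regions. With only KO replicate 1 in use the share was 62.0%, and with only WT replicate 1 or 2 choosing the regions it was 24.2% or 25.7%.

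**Figure D2:**
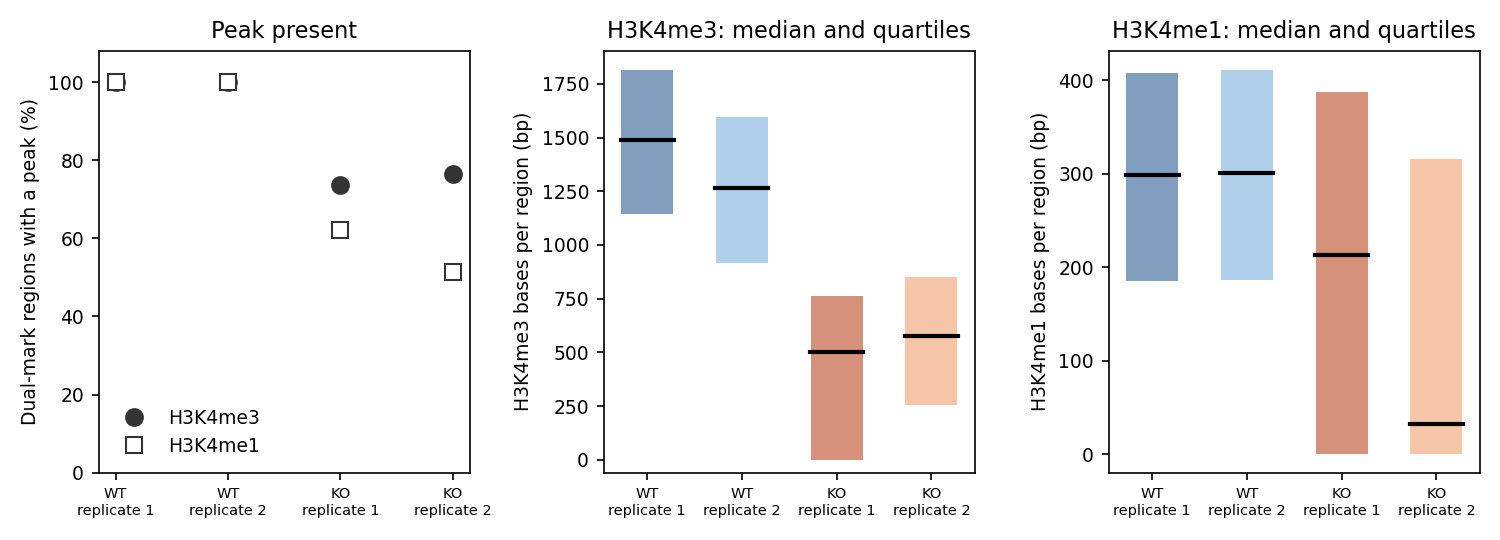
Left, percent of the 661 dual-mark regions with a peak in each library, 100% in WT by the rule of choice; middle and right, bases of the region covered by H3K4me3 and H3K4me1 peaks in each library, with the line at the median and the box from the lower to the upper quartile, counting regions without a peak as 0. KO medians lie at 500 and 578 bp for H3K4me3 and at 213 and 32 bp for H3K4me1.

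The weak rank of H3K4me1 in WT accompanied this low share, and H3K4me1 regions that no H3K4me3 region touched were likewise kept less often at weak ranks. Merged H3K4me1 regions at the dual-mark sites numbered 620, of which 45.2% were held in both KO files, against 66.0% of the 37657 without H3K4me3. Split by rank of the H3K4me1 peak in WT, the shares were 33.3% against 40.6% in the lowest quintile of ranks, 44.4% against 55.8%, 54.1% against 67.4% and 68.1% against 81.4% in the next ones, and 88.0% against 92.0% in the highest. In every quintile the share held in both KO files was lower at the dual-mark sites, and in both sets it was higher in each higher quintile. The share held in neither KO file had no such order between the sets: it was 28.6% against 31.5%, 25.7% against 20.2%, 11.0% against 13.6%, 6.38% against 6.16% and 0% against 2.32% from the lowest quintile to the highest. The highest quintile held 25 dual-mark sites and the one before it 47. The H3K4me1 regions at dual-mark sites were also shorter, with a median of 797 bp against 1054 bp.

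Region by region, kept marks also had the higher WT ranks. Regions that kept H3K4me1 in both KO files had a median WT H3K4me1 percentile of 43.4 and 51.1, those that kept it in 1 file 39.5 and 34.4, and those that kept it in neither 30.9 and 26.7. For H3K4me3 the medians were 77.3 and 75.1, 52.4 and 48.3, and 30.4 and 23.0. Regions whose mark was not called in KO thus had the weaker peaks of that mark in WT.

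H3K4me1 calls at gene ends differed nearly as much between libraries of 1 genotype as between genotypes. Of the gene-end regions with H3K4me3 in both WT files, 1643 had H3K4me1 in WT replicate 1 and 1362 in replicate 2. The 661 dual-mark regions (6.41%) are those shared, 28.2% of the regions with H3K4me1 in either WT file. Over the same gene-end regions, H3K4me1 was called at 1797 in KO replicate 1, 1447 in KO replicate 2 and 718 (6.96%) in both. It was thus called in both files at a similar number of these regions in either genotype. The 2 KO files shared 28.4% of theirs, and the 4 pairs of 1 WT and 1 KO file shared 27.8%, 25.5%, 25.5% and 23.1%. Of the regions with H3K4me1 in WT replicate 1, 40.2% also had it in WT replicate 2, and 45.6% had it in KO replicate 1. For H3K4me3, over the 11141 gene-end regions, the WT files shared 92.7% and the KO files 80.5%, and pairs of different genotype shared 68.5% to 77.0%. These shares are descriptions over regions of the same libraries.

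Choosing the regions by KO peaks in place of WT peaks gave the mirror view for H3K4me1. By that swapped rule, 488 gene-end regions carried both marks in both KO files, and 160 of them were also chosen by the WT rule, 24.2% of the WT-chosen and 32.8% of the KO-chosen regions. Of the KO-chosen regions, 32.8% had H3K4me1 in both WT files and 33.6% in neither. The background, counted over merged H3K4me1 regions held by both KO files and so in an unlike unit, was 71.2% in both WT files and 13.1% in neither. H3K4me1 at gene ends was therefore called in both files of the other genotype at a similarly low share in either direction. Every one of the 488 KO-chosen regions had H3K4me3 in both WT files, where the background was 99.9% of the 6978 gene-end regions with H3K4me3 in both KO files, so nothing is read from it.

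Called H3K4me3 was also narrower in KO. The median region had 1490 and 1263 bp of H3K4me3 in WT and 500 and 578 bp in KO, means of the medians of 1377 ± 161 bp and 539 ± 55.2 bp (SD, n = 2), a log2 ratio of -1.35. The WT and KO values did not overlap, but WT peaks chose the regions and set most of their borders, which favours higher WT values. The widths are those of called peaks, and the median −log10 q was 6.91 and 7.91 in KO against 45.6 and 22.0 in WT. The part of these lower scores in the narrower calls was not tested. At gene-end regions without H3K4me1 the log2 ratio was -1.34, from 1373 ± 144 bp to 542 ± 61.5 bp, so the narrowing was of the same size with and without H3K4me1. At the 445 regions with H3K4me3 in all 4 files, the medians were 1603 and 1380 bp in WT and 638 and 730 bp in KO. Regions that kept the mark were thus narrower too. With −log10 q of at least 5 the log2 ratio over the dual-mark regions was -2.64.

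The extent of H3K4me1 was similar between genotypes where the mark was called. Counting regions without a peak as 0, the median was 299 and 301 bp in WT and 213 and 32 bp in KO, a log2 ratio of -1.29 between the means of the medians. The KO replicates differed from each other by more than the first of them differed from WT. At the 256 regions with H3K4me1 in all 4 files, the medians were 350 and 353 bp in WT and 353 and 336 bp in KO, so the KO medians lay on both sides of the WT ones. The log2 ratio of -1.29 rests on KO replicate 2: it was -0.49 without that library and -3.23 without KO replicate 1.

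Gene-end regions without H3K4me1 kept H3K4me3 at a share close to that of the dual-mark regions. Of the 7969 such regions, 66.5% had H3K4me3 in both KO files and 17.2% in neither. The dual-mark regions exceeded them by 1.27 percentage points in KO replicate 1 and fell short in KO replicate 2, with a difference of -0.586. For both KO files together the difference was 0.777 points, less than the SD of 1.31 points between the 2 KO files. It turned to -6.78 with −log10 q of at least 5 and to -1.02 at equal list length. When peaks had to cover 50% of a region, it was -8.80. At these settings, the regions without H3K4me1 can include those whose WT H3K4me1 peaks fell short of the setting. H3K4me1 appeared in KO at 816 (10.2%) and 632 (7.93%) of these 7969 regions, and in both KO files at 227 (2.85%).

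The WT extent of H3K4me3 went with its presence in KO, with or without H3K4me1. In the quintile of regions with the fewest WT H3K4me3 bases (up to 970 bp), 22.6% of dual-mark regions and 25.7% of those without H3K4me1 had H3K4me3 in both KO files. In the following quintiles, the shares were 66.2% and 66.1%, then 77.1% and 76.8%, then 87.1% and 83.7%, and in the quintile with the most bases (above 1773 bp) 84.1% and 85.5%. The 2 kinds of region differed by at most 3.42 points in any quintile, far less than the lowest quintile differed from the highest.

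**Figure D3:**
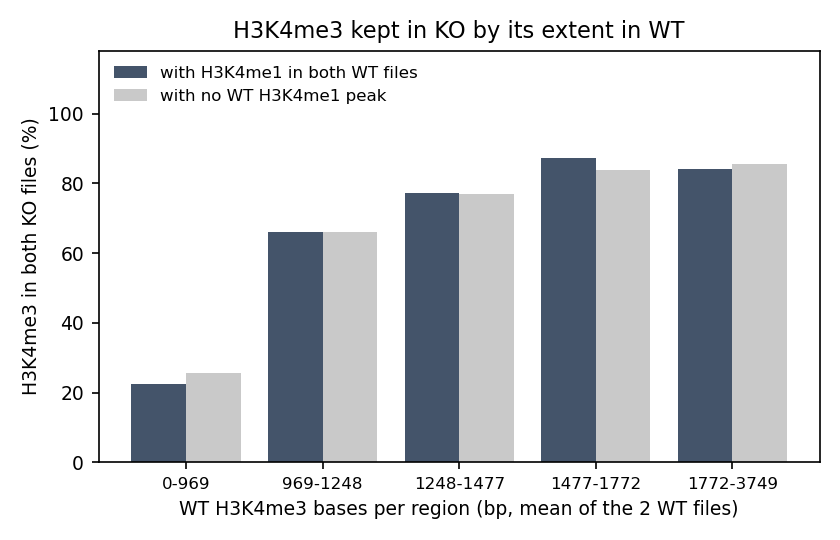
Percent of regions with an H3K4me3 peak in both KO files, by quintiles of the mean WT H3K4me3 bases per region (bp), for dual-mark regions (dark) and gene-end regions with no WT H3K4me1 peak (grey). Bars carry no error because each is a share of regions from the same libraries, and the pair of bars in each quintile lies within 3.42 points.

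Regions that lost H3K4me3 in KO did not lose H3K4me1 more often. Both marks were called in both KO files at 160 regions (24.2%), and neither mark in either file at 26 (3.93%). Among the 445 regions with H3K4me3 in both KO files, H3K4me1 was in both at 160 (36.0%), in 1 at 166 and in neither at 119 (26.7%). Among the 102 with H3K4me3 in 1 KO file, the counts were 47 (46.1%), 33 and 22. Among the 114 with H3K4me3 in neither KO file, they were 49 (43.0%), 39 and 26 (22.8%). H3K4me1 was therefore called at least as often where H3K4me3 was absent in KO as where it was kept. The 2 marks also came from different libraries, so a region's calls share no reads.

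**Figure D4:**
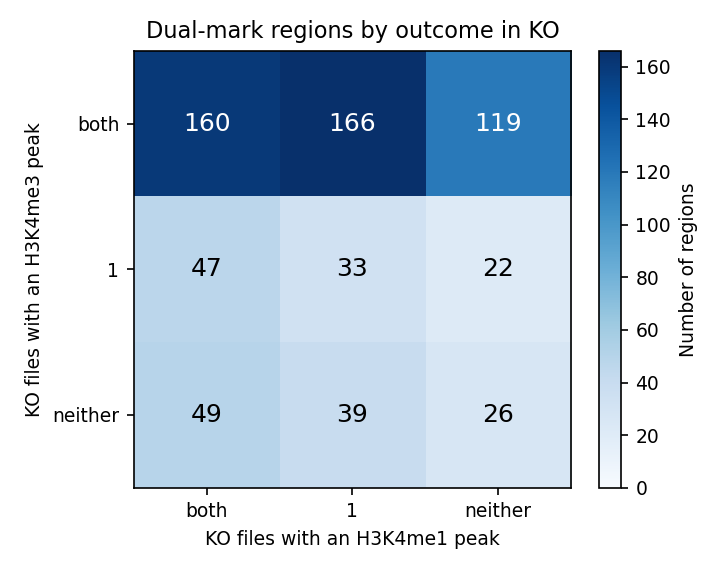
Number of dual-mark regions by the number of KO files with an H3K4me3 peak (vertical axis) and with an H3K4me1 peak (horizontal axis), 661 in all. The largest cell, 166 regions, has H3K4me3 in both KO files and H3K4me1 in 1, and 26 regions have neither mark in either file.

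Within the merged regions, peaks of the 2 marks met more often in WT than in KO, but the way the regions were drawn largely sets the WT side of this. Their borders come mostly from WT H3K4me3, whose peaks covered 97.6% and 82.0% of the bases of the 661 regions, against 31.9% and 36.5% in KO, so an H3K4me1 peak that touches a region nearly always touches WT H3K4me3. Where both marks were called in a WT region, their peaks shared bases in 98.0% and 97.9% of the 661 regions for H3K4me3 replicate 1 (with H3K4me1 replicates 1 and 2) and in 81.1% and 79.9% for H3K4me3 replicate 2. Among KO regions with both marks called, 288, 247, 302 and 262 in the 4 pairs of files, the peaks shared bases in 39.2% and 33.6% for KO H3K4me3 replicate 1 and in 43.4% and 35.9% for replicate 2. The median shared length was 288, 292, 221 and 200 bp in WT and 0 in all 4 KO pairs. These shares therefore describe the regions and restate in part the narrower H3K4me3 of KO (log2 ratio of -1.35 in bases); they are no separate evidence of a difference.

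The KO-chosen regions had the same borders, since all 488 held H3K4me3 in both WT files, and 160 of them are also WT-chosen. Their marks shared bases in 96.9%, 97.8%, 76.5% and 79.9% of regions in WT and in 30.9%, 32.4%, 32.8% and 33.6% in KO. Choosing by KO peaks thus does not remove the effect of the borders. The mean difference over the WT-chosen regions was -51.2 percentage points, -50.9 without WT H3K4me3 replicate 1, the deepest H3K4me3 library, and -51.9 at equal list length. It was 0 when peaks had to cover 50% of a region, a setting that leaves 37 regions and forces the peaks to overlap.

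**Figure D5:**
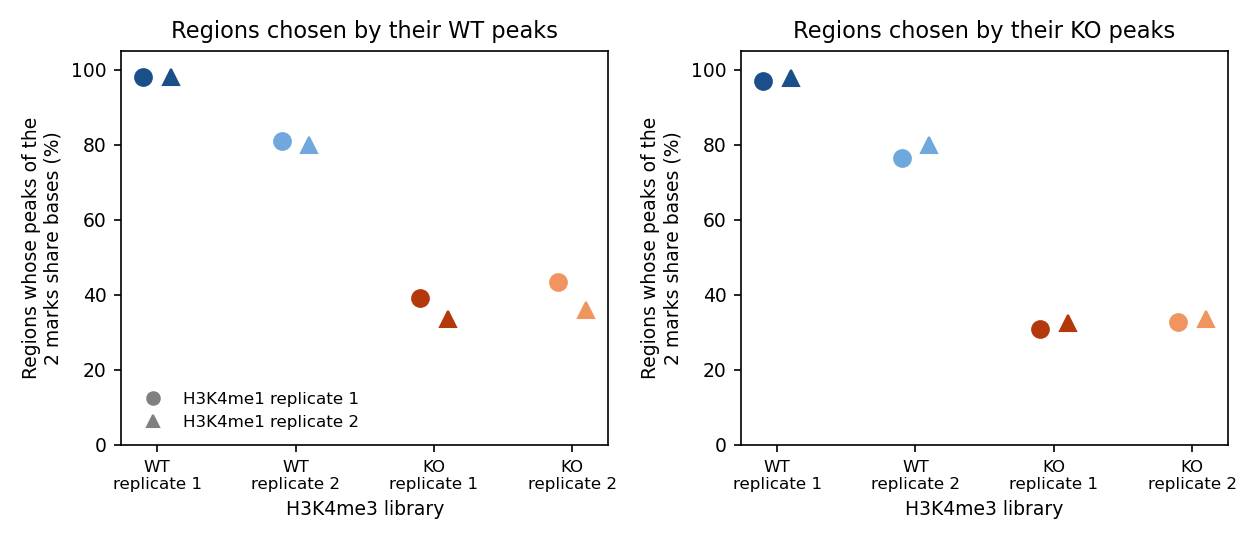
Percent of regions in which the H3K4me3 and H3K4me1 peaks shared at least 1 bp, among regions where both were called, for each H3K4me3 library (horizontal axis) with each H3K4me1 library of its genotype (circle and triangle); left, the 661 regions chosen by WT peaks, right, the 488 chosen by KO peaks. KO pairs lie at 30.9% to 43.4% and WT pairs at 76.5% to 98.0%, and in both panels the region borders come mostly from WT H3K4me3 peaks.

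Overlap can be scored without the rule and without the merged borders. Each H3K4me3 library has its own gene-end peaks and its own genotype's H3K4me1. The narrower peaks of KO still enter this score, and their part was not tested. Over the 10313 merged gene-end regions with H3K4me3 in both WT files, the borders are the same for both genotypes. There, H3K4me1 was in both WT files at 661 regions and in both KO files at 718. In WT, 678 of 11081 gene-end H3K4me3 peaks (6.12%) in replicate 1 and 482 of 10867 (4.44%) in replicate 2 overlapped H3K4me1 present in both WT files. In KO, 104 of 7699 (1.35%) and 135 of 8385 (1.61%) did so with KO H3K4me1. The means were 5.28% ± 1.19 in WT and 1.48% ± 0.183 in KO (SD, n = 2 each), a difference of -3.80 percentage points. Both H3K4me3 libraries of a genotype were scored against the same H3K4me1 files, so neither the SD nor the test below holds the spread of H3K4me1 libraries. Both KO libraries lay below both WT libraries, and the exact two-sided permutation test gave p = 0.333, the smallest that 2 libraries against 2 allow. When 1 H3K4me1 file at a time was used, the means were 12.2% ± 2.13 and 4.71% ± 0.301, a difference of -7.53 points (exact permutation p = 0.333). Without KO H3K4me1 replicate 2 the first difference was 0.0844 points, since 1 KO file then sufficed, and without KO H3K4me1 replicate 1 it was -1.22. Leaving out WT H3K4me1 replicate 1 or 2 made it -9.67 or -11.9.

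Around starts that were not chosen by H3K4me1, WT and KO libraries overlapped in how often they had it. At 5575 starts with H3K4me3 in all 4 files, H3K4me1 peaks lay within 500 bp of the start at 7.73% and 6.26% in WT and at 7.39% and 5.69% in KO. The difference in means was -0.457 points and the values overlapped (exact two-sided permutation test, p = 0.667). At the dual-mark regions, H3K4me1 lay that close to the start at 45.5% and 41.7% in WT, and 29.5% and 25.4% did so in KO, which are descriptions because the WT values chose the regions.

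The regions with the broadest H3K4me3 in WT lay at genes of several kinds (coordinates of mm10, values in the order WT 1, WT 2, KO 1, KO 2 where 4 are given). H1f0, which encodes a linker histone and lies beside Gcat (chr15:79027538-79031233), had 3620 and 3140 bp of H3K4me3 in WT and 264 and 536 bp in KO, and its H3K4me1 went from 340 and 340 bp to no peak in either KO file. Hsp90ab1, the constitutive cytosolic HSP90 chaperone (chr17:45571815-45574575), had 2756, 2629, 705 and 747 bp of H3K4me3 and kept H3K4me1 in every file (222, 165, 221 and 142 bp). Col5a1 (chr2:27885752-27888937) had 3186, 2114, 0 and 1057 bp of H3K4me3, so the KO replicates disagreed, and 186, 186, 180 and 181 bp of H3K4me1. All 3 regions had more H3K4me3 in each WT file than in either KO file. The KO H3K4me3 peaks at H1f0 and Hsp90ab1 were weak, and none of them was left when only peaks with −log10 q of at least 5 were used.

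Vegfc and Sqle were the other regions with the most H3K4me3 bases. Vegfc (chr8:54076762-54079737) had 2859, 2426, 1029 and 1242 bp of H3K4me3 and 345, 104, 0 and 0 bp of H3K4me1. Sqle, which encodes squalene epoxidase of cholesterol synthesis (chr15:59314503-59317409), had 2886, 2390, 1535 and 1337 bp of H3K4me3 and 284, 421, 0 and 20 bp of H3K4me1. Among the 5 broadest, H3K4me1 was thus called in both KO files at Hsp90ab1 and Col5a1.

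The highest-ranked H3K4me1 among the dual-mark regions lay at Ifit1bl1, Col5a1, Cthrc1, Hjurp and Ifit3b, and all 5 kept it in both KO files. In the highest quintile of WT H3K4me1 ranks, 88.0% of H3K4me1 regions at dual-mark sites and 92.0% without H3K4me3 did so. Nothing particular to these 5 regions is therefore read from it. Cthrc1, which encodes a secreted protein of matrix-forming cells (chr15:39076905-39077905), had H3K4me1 at −log10 q of 18.1, 12.7, 16.4 and 13.3 and 999, 609, 0 and 0 bp of H3K4me3. Hjurp, the chaperone that loads the centromeric histone CENP-A (chr1:88276292-88277755), had H3K4me1 at −log10 q of 17.5, 11.5, 11.7 and 14.8 and 1446, 1464, 1079 and 1153 bp of H3K4me3. Hjurp also had some of the best-scored H3K4me3 of the WT files, at −log10 q of 190.0 and 97.4. Ifit3b (chr19:34607421-34609817) had H3K4me1 at −log10 q of 16.8, 11.2, 14.0 and 6.88 and 2370, 2257, 1075 and 1429 bp of H3K4me3. Ifit1bl1 and Ifit3b belong to a cluster of near-identical genes, so reads may have been split between copies and their values are uncertain.

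Regions that lost H3K4me3 in both KO files but kept H3K4me1 numbered 49. Those at Ifit1bl1, Pold4, Triobp and Zbtb18 were among the best ranked of them by WT H3K4me3. Pold4 (chr19:4231481-4232594), whose promoter with 12 CpG is shown above, had 921 and 958 bp of H3K4me3 in WT at −log10 q of 62.1 and 27.8, no H3K4me3 peak in KO, and 198, 196, 334 and 150 bp of H3K4me1. Triobp, which encodes an actin-bundling protein (chr15:78947684-78948572), had 889, 717, 0 and 0 bp of H3K4me3 and 639, 491, 359 and 356 bp of H3K4me1. At both, the H3K4me1 scores of the genotypes overlapped while H3K4me3 was not called in KO. Zbtb18, a zinc-finger transcriptional repressor (chr1:177443096-177444731), had 1621, 822, 0 and 0 bp of H3K4me3 and 379, 637, 504 and 237 bp of H3K4me1.

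The converse, H3K4me3 in both KO files with H3K4me1 in neither, was seen at 119 regions, and those at Slc39a3, Ccdc107, Zfp677 and Dctpp1 were among the best ranked by WT H3K4me3. Slc39a3 (chr10:81036568-81037339) had 577, 772, 413 and 412 bp of H3K4me3 at −log10 q of 111, 57.9, 20.3 and 23.8, which ranked at the 99.6 percentile or higher in every file. Its H3K4me1 covered 435 and 172 bp in WT, at −log10 q of 4.30 and 4.52, and none in KO. The region was thus among the best-ranked H3K4me3 sites of both genotypes, with H3K4me1 in the lower part of the WT files. Dctpp1, the pyrophosphatase that clears dCTP (chr7:127260120-127260865), had 746, 638, 431 and 628 bp of H3K4me3 and 342, 427, 0 and 0 bp of H3K4me1. Ccdc107 and Zfp677 had only 34 and 49 bp and 102 and 160 bp of H3K4me1 in WT, and Zfp677 belongs to the large zinc-finger family, whose copies can share reads.

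Neither mark was called in KO at 26 regions, of which Abcb8, Dnah6, Ccdc159, Tfpi and Acot1 had the best WT H3K4me3. Tfpi (chr2:84474932-84476801) had 1870 and 1348 bp of H3K4me3 at −log10 q of 39.2 and 18.95 and 382 and 418 bp of H3K4me1 at 5.06 and 4.47 in WT. Abcb8, a mitochondrial ABC transporter (chr5:24394198-24395205), had 1008 and 716 bp of H3K4me3 and 837 and 55 bp of H3K4me1, so its 2 WT files differed widely in H3K4me1. Dnah6, an axonemal dynein heavy chain (chr6:73221702-73222529), had 828 and 628 bp of H3K4me3 and 754 and 420 bp of H3K4me1. Their WT H3K4me3 fell in the middle to upper part of the WT files, between the 47.3 percentile (Acot1, WT replicate 1) and the 88.3 percentile (Abcb8, WT replicate 1). Acot1 (chr12:84009013-84010432) lies in a cluster of similar thioesterase genes and its reads may have been split between them. No other H3K4me3 region held in both KO files lay within 1 kb of an end of these 5 genes.

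A gene whose dual-mark region lost H3K4me3 could still carry the mark in another region within 1 kb of its ends. Of the 114 dual-mark regions with H3K4me3 in neither KO file, 12 (10.5%) belonged to a gene with another gene-end region that held H3K4me3 in both KO files. Among the 1367 regions without H3K4me1 that lost H3K4me3 in both KO files, 269 (19.7%) did. Kmt2c, which encodes MLL3, was one such gene. Its dual-mark region (chr5:25499174-25500379) had 1199, 621, 0 and 0 bp of H3K4me3, and the neighbouring region at chr5:25496857-25498722, near the same gene start, held H3K4me3 in both KO files.

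Median CpG content differed between the outcomes for H3K4me3 and was the same for those of H3K4me1, again with no test. Dual-mark windows with H3K4me3 in neither KO file (68 regions) had a median of 13 CpG, and 23.5% had 5 or fewer. Those with H3K4me3 in both KO files (342 regions) had a median of 20 CpG, and 4.39% had 5 or fewer. Without H3K4me1, the median was 24 CpG in both outcomes. For H3K4me1, windows that kept the mark in both KO files and in neither both had a median of 19. The GC box GGGCGG was in 54.4% of dual-mark windows that lost H3K4me3 in both KO files and in 68.7% of those that kept it.

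By position, most dual-mark regions lay at gene starts. The nearest gene end was a 5′ end at 502 regions (75.9%), a 3′ end at 24 (3.63%) and of unknown kind at 135, where the tables used give no strand. Without H3K4me1, the shares were 77.8% for 5′ and 1.92% for 3′ ends. Of the 24 regions at 3′ ends, 18 had no start within 1 kb. H3K4me3 was in both KO files at 41.7% of the 24 and in neither at 45.8%, against 69.7% and 15.1% at 5′ ends. The WT H3K4me3 at 3′ ends also ranked lower, with median percentiles of 45.8 and 35.2 against 68.3 and 66.7. The gene end lay inside the region at 486 of the 661 regions.

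The regions lay within 1 kb of 750 genes, 6.77% of the 11072 genes with a gene-end region held by both WT files. A single gene was near 573 regions, 2 genes near 84 and 3 or more near 4, so 13.3% were shared by neighbouring genes, against 17.6% of regions without H3K4me1. Across chromosomes, dual-mark regions made up from 7 of 333 (chromosome 16) and 2.75% (18 of 655, chromosome 4) of gene-end regions to 9.81% (chromosome 8) and 11.4% (43 of 377, chromosome 19). Chromosome 10 was the one with the highest share of regions keeping H3K4me1 in both KO files, 64.3% of 42, and it also had the highest share keeping H3K4me3, 78.6%. Without chromosome 10, 619 regions remained.

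Few genes of the lists examined had a dual-mark region. Of 319 listed genes in 16 lists, 228 had H3K4me3 in both WT files at a gene end, and 11 of these (4.82%) had a dual-mark region, beside 6.77% of all such genes. The lists of extracellular matrix and adhesion, TGF-beta and BMP, actin cytoskeleton and Hox genes had 0 of 19, 0 of 20, 0 of 17 and 0 of 27. The haematopoietic, endothelial, epithelial and neural marker lists also had 0. With 0 to 2 genes in any list, the shares per list carry little precision.

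Among fibroblast genes, Col5a1 and Lum had dual-mark regions, 2 of 19. Lum, which encodes the collagen-binding proteoglycan lumican (chr10:97566016-97567308), had 1070 and 968 bp of H3K4me3 in WT and none in KO, while its H3K4me1 covered 746, 944, 1139 and 1062 bp. At Lum, −log10 q of H3K4me1 was 4.48 and 5.07 in WT and 10.3 and 7.47 in KO, so its H3K4me1 scored higher in both KO files than in either WT file. Lum lies on chromosome 10, where 64.3% of 42 dual-mark regions kept H3K4me1 in both KO files, against 38.7% of all. The KO H3K4me1 libraries had 13627038 and 12611409 fragments and the WT ones 12607690 and 11604131, so KO replicate 2 nearly equalled WT replicate 1. Neither point was tested for Lum. Egr3, an immediate-early transcription factor (chr14:70074434-70076790) and the only 1 of 21 immediate-early genes with a dual-mark region, had 2357, 1045, 0 and 0 bp of H3K4me3 and 424, 366, 522 and 336 bp of H3K4me1. Lum and Egr3 thus both belonged to the 49 regions with H3K4me1 but no H3K4me3 called in KO.

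Notch2, a receptor that is both in the Notch list (1 of 15) and in that of Fbxw7 substrates (1 of 17), kept H3K4me3 in all files. Its region (chr3:98013598-98015405) had 1808, 1650, 446 and 1007 bp of H3K4me3 and 244, 267, 426 and 0 bp of H3K4me1. In the cell-cycle list, 2 of 25 genes had a dual-mark region. Mcm6, a subunit of the replicative helicase, had 1590, 1454, 400 and 351 bp of H3K4me3 and 411, 393, 0 and 0 bp of H3K4me1. Mki67, which encodes the proliferation marker Ki-67, had 1785, 1029, 632 and 0 bp and 294, 287, 472 and 0 bp, so both marks were absent in KO replicate 2 only. All 3 genes had less H3K4me3 in each KO file than in either WT file.

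Among genes of H3K4 methylation, 2 of 14 had a dual-mark region, Kmt2c, described above, and Setd1a, the catalytic subunit of a SET1 complex. The region counted for Setd1a (chr7:127800603-127801341) holds the start of Hsd3b7, its nearest gene end, and lies within 1 kb of an end of Setd1a. It had 713, 706, 0 and 0 bp of H3K4me3 and 739, 208, 549 and 0 bp of H3K4me1. Another region, at the other end of Setd1a (chr7:127776255-127778465), held H3K4me3 in both KO files. The H3K4me3 loss at the first region therefore need not concern the start of Setd1a. In sterol synthesis, 2 of 20 genes had a dual-mark region, Sqle and Scd1. Scd1, the stearoyl-CoA desaturase, had 2050, 1878, 552 and 581 bp of H3K4me3 and 344, 419, 0 and 0 bp of H3K4me1. Gusb, the lysosomal beta-glucuronidase and 1 of 14 housekeeping genes, kept both marks in all files, with 1664, 1210, 559 and 711 bp of H3K4me3 and 358, 567, 722 and 503 bp of H3K4me1.

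MLL4 was rarely called at any gene end, these regions included. The MLL4 files held 54 and 61 autosomal peaks in WT and 43 and 36 in KO. In WT replicate 1 the peak at chr10:80261131-80261695 (8.05-fold over background) lay at the region of Gamt, an enzyme of creatine synthesis, and Dazap1. In WT replicate 2 the peak at chr3:95625017-95625253 (6.76-fold) lay at Ensa, an inhibitor of a mitotic phosphatase. Of all 10313 gene-end regions with H3K4me3 in both WT files, 13 had an MLL4 peak within 1 kb in each WT file, 1 in KO replicate 1 and 0 in KO replicate 2. No dual-mark region had an MLL4 peak in KO, and neither WT peak was called in the other WT file. Gamt had 708, 623, 673 and 250 bp of H3K4me1 and Ensa 250, 785, 0 and 0 bp. With so few peaks, no comparison of MLL4 at these regions could be made.

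At the 1 kb limit, the last regions taken lay at Ttc6 (1000 bp from the gene end), Naf1 (958 bp) and Zmiz2 (914 bp), and the first left out at Slc12a9 (1007 bp), Angptl6 (1048 bp) and Pou1f1 (1053 bp). H3K4me3 was in neither KO file at Ttc6 and Zmiz2 and at the 3 left out, and in both at Naf1 (847 and 800 bp). H3K4me1 was in neither KO file at Ttc6 and in 1 at Naf1 and Zmiz2.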

How the data were processed

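Cut & Run peak lists of 12 libraries, 2 per genotype for each of 3 antibodies, were analysed. Peaks were called by the authors for each library with MACS2 2.1.0.20150731 at a q cutoff of 0.01 without an input library, with local background over up to 10000 bp, per the file headers. The submitters' processing notes name the build mm10 and the tools Bowtie2, SAMtools 1.5, bedtools, deepTools and HOMER 4.10. The deposited columns used were the peak positions, the −log10 q-value per peak and the fold enrichment over local background, which are the authors' own values, and the pileup signal in the deposited files was not used. Library sizes are the filtered fragment counts in the headers. Read counts per region are not used here, so depth enters only through the calls.

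From these lists, H3K4me3 peaks were merged at an overlap of 1 bp on chromosomes 1 to 19 and matched to protein-coding gene ends of RefSeq GRCm38.p6 (20665 genes, with a start and strand known for 16457), in Python 3.11.15 with numpy 2.4.6, scipy 1.17.1 and matplotlib 3.10.9. Strand was checked on 1911 overlapping promoter windows of opposite strands, of which 1911 had the same bases once reverse-complemented. A mark was present where a peak overlapped the region by 1 bp, and its bases are those of the region under its peaks. Percentiles are ranks by −log10 q within a file. A single value per library was tested by exact two-sided permutation of 2 libraries against 2, which cannot reach 0.05 (smallest p 0.333). The scripts were tested on simulated data.

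Named regions were the 5 with the most WT H3K4me3 bases, the 5 with the best WT H3K4me1 rank, the 5 best by WT H3K4me3 rank in each of 3 KO outcomes, the 3 nearest each side of the 1 kb limit, those within 1 kb of an MLL4 peak, and up to 4 per gene list. Some regions that this rule names are not reported here. The members and lists were chosen with earlier results of these data known. The lists covered fibroblast, matrix, immediate-early, Fbxw7 substrate, Notch, TGF-beta and BMP, actin, cell-cycle, H3K4 methylation, sterol, housekeeping and Hox genes and markers of 4 other lineages. Alternatives were a −log10 q of at least 5, equal list lengths, windows of 500 bp and 2 kb, cover of 50% of a region, no chromosome 10, each histone library left out, the swapped rule and a replicate block. The comparisons of shared bases and of 1 H3K4me1 file at a time were added after seeing the data.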

Additional observations from a re-analysis of the deposited data

How the results depend on the processing

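The share of dual-mark regions with H3K4me3 in both KO files (67.3%) became 43.1% with −log10 q of at least 5 and 80.6% at equal list length. It was 8.11% when peaks had to cover 50% of a region, and 62.6% to 76.4% with 1 library left out. The swapped rule gives a different share: 100% of the 488 KO-chosen regions had H3K4me3 in both WT files. For H3K4me1 in both KO files (38.7%) the share was 29.4% with −log10 q of at least 5 and 24.2% to 62.0% with 1 library left out. The log2 ratio of H3K4me3 bases (-1.35) was -2.64 with −log10 q of at least 5 and -1.51 to -1.24 with 1 library left out, and that of H3K4me1 bases (-1.29) was -3.23 to -0.49. The excess in kept H3K4me3 over regions without H3K4me1 (0.777 points) reversed to -6.78 with −log10 q of at least 5. It was -1.02 at equal list length and -8.80 at 50% cover, and ranged from -0.628 to 3.29 with 1 library left out. In each setting, the regions without H3K4me1 were those with no WT H3K4me1 peak left by that setting. The rule-free overlap difference (-3.80 points) ranged from -11.9 to 0.0844, the last without KO H3K4me1 replicate 2, where a single KO file then sufficed by construction. With a replicate block, its exact p was 0.5, the smallest that pairing allows, and the replicate numbers are not stated to mark a shared culture. The difference in regions whose marks share bases (-51.2 points) was 0 at 50% cover, -55.4 under the swapped rule and -61.2 to -47.9 with 1 library left out. Windows of 500 bp and 2 kb and leaving out chromosome 10 moved none of these beyond the replicate spread. Region numbers ranged from 37 at 50% cover, 197 with −log10 q of at least 5 and 386 at equal list length to 492 to 1643 with 1 library left out. The log2 ratio of H3K4me3 bases had no value at 50% cover, where the KO median was 0, and that of H3K4me1 bases none without either WT H3K4me1 library. The 50% cover leaves few regions and forces peaks to overlap, and a group reduced to 1 library needs 1 peak. Otherwise the cause was not tested. Of 37 named regions, 32 kept their number of KO files with H3K4me3, and 28 with H3K4me1, with −log10 q of at least 5. Depth limits the calls: a peak missing from a KO file is a peak below threshold at that library's depth, not absence of the mark, and H3K4me1 at gene ends was called in both files of either genotype at only 28.2% (WT) and 28.4% (KO) of the regions with it in either.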
